A study of Mus musculus with 6 samples.

Results

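The genes described here encode the subunits of respiratory complexes II, III, IV and V and the mobile electron carrier cytochrome c. They were taken by name: every gene of the array annotation whose current symbol starts with Sdha to Sdhd, Uqcr, Cox4 to Cox8 or Atp5, together with Cyc1 and Cycs. The rule found 50 of the 12393 genes measured, carried by 90 of the 22690 probe sets. By role, 7 belonged to complex II, 9 to complex III, 16 to complex IV and 17 to complex V, and Cycs was the cytochrome c gene. Sdhaf1, Sdhaf2 and Sdhaf4, which share the prefix, are assembly factors of complex II and not subunits.

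The miR-34a group held 3 arrays from 344SQ lung cancer cells, or tumours of them, with the microRNA inducibly expressed. The vector group held 3 arrays from 344SQ cells, or tumours of them, with a control vector. 344SQ is a metastatic mouse line with high Zeb1, described by the submitters as a KP line, and both groups share that background. Whether the RNA came from tumours or from culture is not settled by the labels. The design text and the miR-34a titles name tumours in injected mice, and the remaining fields name cultured cells. The macrophage gene C1qb had 2502 to 3099 in miR-34a arrays and 745 to 1603 in vector arrays. The fibroblast gene Col3a1 had 7668 to 10782 in miR-34a arrays and 2712 to 11183 in vector arrays. The endothelial gene Cdh5 had 1136 to 1227 and 822 to 1893, whereas the endothelial gene Pecam1 had 173 to 224 and 209 to 290. The cells that gave this RNA were not tested. The arrays give no level of mature miR-34a, and the annotation held no symbol for its gene. The labels do not say whether the 3 arrays of a group stand for separate mice or cultures. The p-values therefore measure only how far these samples spread, which may be technical.

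The respiratory chain passes electrons from succinate (complex II) and from complex I through ubiquinone to complex III, by cytochrome c to complex IV and on to oxygen. Complexes III and IV pump protons, and complex V, the ATP synthase, uses the proton gradient to make ATP. Cytochrome c also has a role outside respiration: when it leaves mitochondria it binds Apaf1 and starts caspase activation. Subunits of complex IV occur in common and tissue-specific isoforms, several of which are typical of muscle, brown fat, lung or testis. A few subunits of the complexes are encoded by mitochondrial DNA, and the members here are all nuclear genes.

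The mature microRNA is shown because it is what the groups differ in by design. In the RefSeq record (GRCm38.p6, chr4:150068473-150068494, plus strand) the 22 bases of mmu-miR-34a-5p read as follows, with the seed, bases 2 to 8, in capitals. No 3' untranslated sequence was used, so seed sites in the members were not searched.
mmu-miR-34a-5p: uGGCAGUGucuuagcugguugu

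The median intensity of the arrays lay between 466.7 and 484.2. Vector 1 stood apart, with a Pearson's r across genes of 0.969 and 0.972 with the other vector arrays, whereas r was 0.992 to 0.996 between miR-34a arrays and 0.993 between vector 2 and vector 3. Of the lung and epithelial cancer markers 0 of 9 passed in limma, with 1 at an unadjusted p under 0.05. The keratin gene Krt8 lay at 21273 to 22834 in miR-34a arrays and 19705 to 22490 in vector arrays. Other genes of this list were less even. The keratin gene Krt19 had 11682 to 12905 in miR-34a arrays, against 19739, 11940 and 12667 in vector arrays. Epcam had 951 to 1142 in miR-34a arrays, against 305, 977 and 1463 in vector arrays. The lung markers Nkx2-1 (248 to 263 in miR-34a arrays, 261 to 348 in vector arrays) and Sftpc (248 to 306 and 223 to 232) lay below the median intensity of every array. Fibroblast and macrophage genes differed between arrays. The summed intensity of 7 fibroblast genes ran from 30074 to 43050 in miR-34a arrays and from 9982 to 36587 in vector arrays, and that of 8 macrophage genes from 17810 to 20725 and from 10149 to 17326. Vector 1 was the lowest array in each fibroblast gene, with Col1a2 at 2897, against 10290 and 8256 in vector 2 and vector 3. The median change of the fibroblast genes was 0.78, and 0.33 without vector 1, where Col3a1 (-0.089) and Lum (-0.40) were below 0. That of the macrophage genes was 0.54, and 0.30 without vector 1. Among these lists, the fibroblast gene Thy1 (1.73 in log2 units) and the macrophage genes C1qb (1.13) and Fcgr1 (0.98) were higher. The macrophage gene Mrc1 (-0.99) was lower. When each array was left out, Thy1 and Fcgr1 passed in 2, C1qb in 1 and Mrc1 in 6 of 6 fits. C1qb missed the threshold with quantile normalization or the mean of all probe sets, and Thy1 and C1qb with a robust variance trend. As a sign of RNA quality, the Actb controls had a 3' to 5' log2 difference that averaged 0.57 in miR-34a arrays and 0.43 in vector arrays. It was 0.54 to 0.59 in miR-34a arrays, 0.60 in vector 2 and 0.34 in vector 1 and vector 3. That of the Gapdh controls averaged 0.11 in miR-34a arrays and -0.0068 in vector arrays, with 0.069 in vector 2. In such bulk RNA, fewer cells of a type and less RNA per cell cannot be told apart, and the part of these shifts in the results below was not tested.

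As a group the members hardly moved, and the clearest change was in cytochrome c. A call is a limma adjusted p under 0.05, with Benjamini-Hochberg adjustment over all 12393 genes, on log2(intensity + 16). Of the 50 members 6 passed (12%), where 11.7% of all genes did. Uqcrq of complex III and Atp5e and Atp5k of complex V rose in miR-34a samples (3 members, 6%, where 6.5% of all genes did), and Cycs, Cox6c of complex IV and Atp5j of complex V fell (3 members, 6%, where 5.25% of all genes did). The share of members called was therefore close to the share of all genes. The groups did not overlap in 22 members (44%, against 34.9% of all genes), with miR-34a above in 14 (20.8% of all genes were so placed) and below in 8 (14% of all genes).

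The changes were mostly small. The median change of the 50 members was 0.084 in log2 units, miR-34a minus vector, and that of all genes 0.024. The median of the members was 0.048 without vector 2, 0.056 without miR-34a 3 and 0.028 with suffix-free probe sets. In 35 members the change was above 0 (70%, against 54.3% of all genes) and in 15 below. The change was under 0.25 in size in 39 members (78%), as it was in 67.7% of all genes. The median by complex was 0.060 for complex II, 0.092 for complex III, 0.098 for complex IV and 0.097 for complex V. Leaving out vector 1 turned the complex II median to -0.017, and without vector 2 it was 0.13. The complex III median was 0.16 without vector 1, 0.023 without vector 2 and 0.038 without miR-34a 3. The complex IV median was 0.16 without vector 1, 0.048 without vector 2 and 0.060 without miR-34a 3, and that of complex V was 0.062 without vector 2. Without vector 1, 5 members passed as higher and 3 as lower, with all 6 of the calls above among them. That is 16% of members, against 17.2% of all genes in the same fit. Without vector 2, 1 passed as higher and 2 as lower (6%, against 10.1% of all genes). Without vector 3 it was 1 and 1 (4%, against 5.09%). Leaving out miR-34a 2 left 0 higher and 2 lower (4%, against 5.38%). In the fits that lacked another miR-34a array 0 were higher and 1, Cycs, was lower. That is 2%, against 2.06% of all genes without miR-34a 1 and 1.82% without miR-34a 3.

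**Figure D1:**
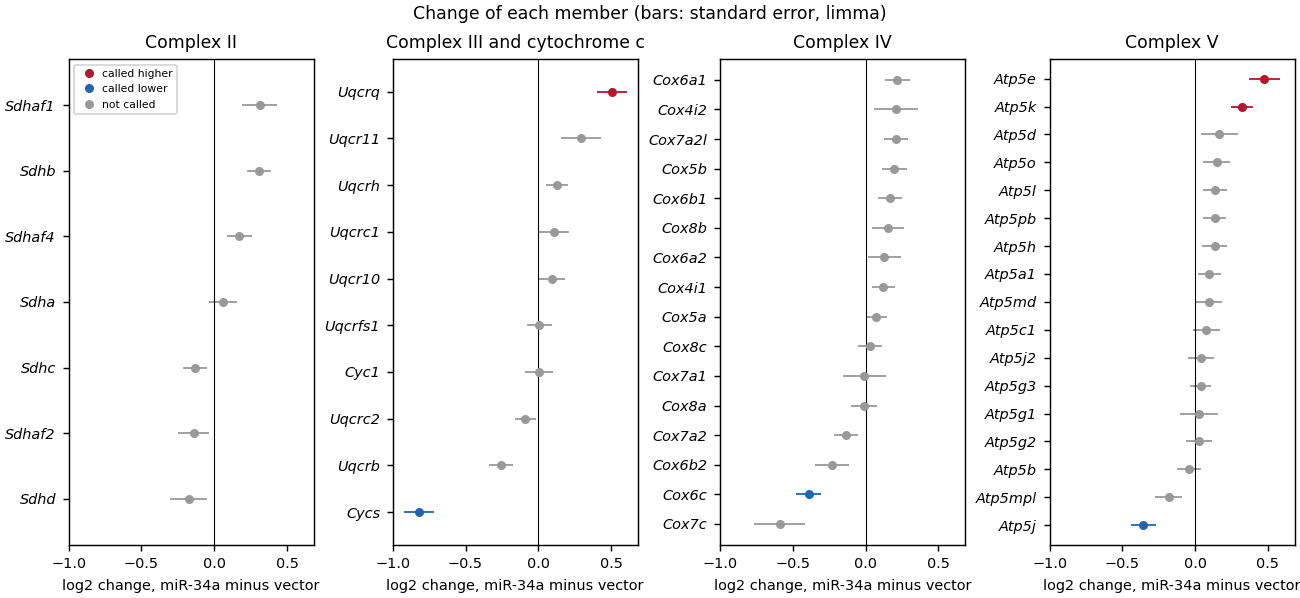
Change of each of the 50 members in log2 units (miR-34a minus vector, horizontal axis), by complex, with the standard error of the limma fit as bars. Most members lie within 0.25 of 0, and Cycs at -0.82 is the farthest from it.

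Cytochrome c shuttles electrons from complex III to complex IV. Cycs had intensities of 5247, 4893 and 4707 in miR-34a arrays, against 9940, 8242 and 8138 in vector arrays. The groups lay far apart, and vector 1 was the highest array. Cycs fell by 0.82 ± 0.10 in log2 units (SE; limma adjusted p = 0.00726), which is 1.76-fold lower in miR-34a samples. Its other probe sets moved the same way, with changes of -0.96 and -1.18. Cycs was the only member that passed in each of the 6 fits that left out 1 array, where its change ran from -0.87 to -0.73. The haem lyase gene Hccs, whose product attaches haem to cytochromes c and c1, is no member but stands in the list of assembly factors. It had 869, 968 and 797 in miR-34a arrays, against 1739, 1617 and 1908 in vector arrays. Hccs fell by 0.99 ± 0.10 (SE; limma adjusted p = 0.00541) and also passed in each of those 6 fits.

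**Figure D2:**
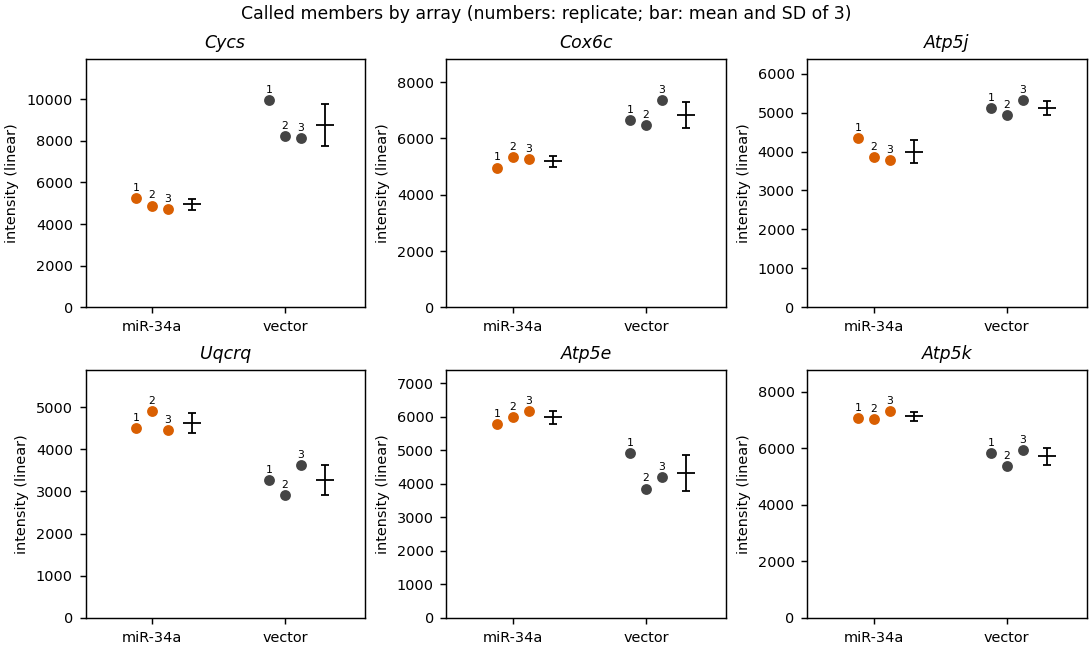
Intensity on a linear scale of the 6 called members in each array, with miR-34a left of vector, the replicate number above each point and the mean with its SD (n = 3) beside them. The 3 miR-34a values of Cycs, Cox6c and Atp5j lie below all vector values, and those of Uqcrq, Atp5e and Atp5k above.

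Of the partners of cytochrome c in apoptosis, 0 of 5 measured genes passed in limma, with 2 at an unadjusted p under 0.05. The adaptor gene Apaf1 had a change of -0.018 and the caspase gene Casp9 0.23. The inhibitor antagonist gene Diablo had 0.28, with an adjusted p of 0.0515 in the limma fit, the death effector gene Bak1 0.21 and the protease gene Htra2 -0.036. A second probe set differed in sign for Diablo (-0.063), Casp9 (-0.026) and Htra2 (0.097). That of Apaf1 (-0.13) and of Bak1 (0.11) kept the sign. Without vector 1, 1 of these genes passed as higher.

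The promoter of Cycs is shown since Cycs had the largest change, with 250 bases before and 50 after the transcription start, from RefSeq (GRCm38.p6, chr6:50566520-50566819, minus strand, read 5' to 3'). Of the members, 38 had a promoter in this table, in 41 sequences. Letters known as binding motifs of regulators of respiratory genes were searched on both strands: the core of nuclear respiratory factor 1 (NRF1; GCATGCGC), the ETS motif bound by GABP (CCGGAAG), YY1 (AAGATGGC) and the cyclic AMP response element (CRE; TGACGTCA). The NRF1 core and the CRE were picked with the Cycs sequence in view. Both are in capitals below, the CRE starting 169 and the NRF1 core 60 bases before the start.
Cycs: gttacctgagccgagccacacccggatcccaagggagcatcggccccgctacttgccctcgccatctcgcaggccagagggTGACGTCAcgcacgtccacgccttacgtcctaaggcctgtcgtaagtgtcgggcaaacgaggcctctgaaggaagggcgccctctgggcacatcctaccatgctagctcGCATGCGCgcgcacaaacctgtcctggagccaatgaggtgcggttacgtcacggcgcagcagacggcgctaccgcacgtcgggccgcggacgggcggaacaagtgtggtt

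Over the 41 member promoters the NRF1 core stood in 8 (19.5%), against 4.29% of the 12566 promoters of genes tested. The ETS motif stood in 15 (36.6%, against 14.0%), the YY1 motif in 3 (7.32%, against 3.60%) and the CRE in 2 (4.88%, against 2.51%). The other CRE was in the promoter of Uqcrfs1. The member shares of the NRF1 core and the CRE include Cycs, with whose sequence in view both were picked, and are raised by that choice. A match is a description of letters and not of a bound site.

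Complex II, succinate dehydrogenase, links the tricarboxylic acid cycle to the chain. In limma 0 of its 7 genes passed, where 11.7% of all genes did, and 2 had an unadjusted p under 0.05. Sdhb, the iron-sulphur subunit, had 4947, 5543 and 5002 in miR-34a arrays, against 4265, 3947 and 4289 in vector arrays. The groups did not overlap, but the change of 0.31 ± 0.085 missed the threshold (limma adjusted p = 0.0600). Sdhb passed with dim genes left out (adjusted p = 0.0490), a pseudocount of 64 (0.0453), a robust variance trend (0.0445) or array weights (0.0292). The flavoprotein gene Sdha had a change of 0.060, and the membrane anchor genes Sdhc and Sdhd -0.13 and -0.18. Sdha, Sdhc and Sdhd each had a second probe set, at 0.41, 0.065 and 0.036, so that of Sdhc and Sdhd differed in sign from the brighter one. Among the assembly factors, Sdhaf1 had 835, 714 and 769 in miR-34a arrays, against 700, 532 and 632 in vector arrays. These groups did not overlap either. The change of Sdhaf1 was 0.31 ± 0.12 (limma adjusted p = 0.139), and 0.40 with a call when vector 1 was left out (adjusted p = 0.0432). Sdhaf2 had a change of -0.14 and Sdhaf4 0.17.

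In complex III, the cytochrome bc1 complex, 1 of 9 genes passed (11.1%, against 11.7% of all genes). Uqcrq, a small subunit near the ubiquinone sites, had 4501, 4908 and 4464 in miR-34a arrays, against 3265, 2911 and 3625 in vector arrays. All miR-34a values lay above all vector values. Uqcrq rose by 0.50 ± 0.10 (SE; limma adjusted p = 0.0256), with changes of 0.42 to 0.58 over the 6 fits that left out 1 array. It passed without each of the vector arrays and missed the threshold without each miR-34a array. Its 3 other probe sets were far dimmer, at mean intensities of 188 to 550, and changed by 0.019 to 0.22. Averaged over all probe sets Uqcrq had a change of 0.19 (limma adjusted p = 0.205), and the call was lost. The probe set used carries a suffix by which Affymetrix marks probes shared with other transcripts. With suffix-free probe sets preferred, the change of Uqcrq was 0.029 (adjusted p = 0.879).

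Uqcrb, another small subunit, went the other way without passing. Its brighter probe set had 12797, 11961 and 12246 in miR-34a arrays, against 13866, 14559 and 15760 in vector arrays. The groups did not overlap, and the change was -0.25 ± 0.083 (limma adjusted p = 0.0957). A dimmer probe set had 2351, 2232 and 2446 in miR-34a arrays, against 3514, 3410 and 3915 in vector arrays, a change of -0.62. With the mean of both, Uqcrb had a change of -0.44 and passed (limma adjusted p = 0.018), as it did at -0.62 with the dimmer, suffix-free probe set (adjusted p = 0.00932).

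The redox subunits encoded by Cyc1 and Uqcrfs1 had changes close to 0. The cytochrome c1 gene Cyc1, which hands electrons to cytochrome c, had a change of 0.0049 and the Rieske iron-sulphur gene Uqcrfs1 0.0063. The core protein genes Uqcrc1 and Uqcrc2 had 0.11 and -0.088. Median centring turned Cyc1 to -0.010 and Uqcrfs1 to -0.0087. Uqcr10 had a change of 0.092 and the hinge protein gene Uqcrh 0.13. Uqcr11 had 0.29 ± 0.14 (limma adjusted p = 0.226), and 0.43 with a call without vector 1 (adjusted p = 0.0280). In Uqcr11 vector 1, at 3629, lay within the miR-34a range of 3420 to 3871, whereas the other vector arrays had 2509 and 2932.

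In complex IV, cytochrome c oxidase, 1 of 16 genes passed (6.25%, against 11.7% of all genes). Cox6c, a small membrane subunit, had 4964, 5345 and 5261 in miR-34a arrays, against 6652, 6471 and 7351 in vector arrays. All miR-34a values lay below all vector values. Cox6c fell by 0.39 ± 0.085 (SE; limma adjusted p = 0.0299), and its second probe set changed by -0.28. Over the fits that left out 1 array the change ran from -0.43 to -0.34, and it passed without vector 1 or vector 2 and missed the threshold in the other 4 fits. Cox7c had the second largest negative change, -0.59 ± 0.18 (limma adjusted p = 0.0749), on a dim probe set with 97.3, 164 and 115 in miR-34a arrays, against 190, 174 and 216 in vector arrays. The groups did not overlap. Cox7c passed without miR-34a 2, at -0.78 (adjusted p = 0.0327). Its level was in the lowest 25% of genes, where a difference in signal is not told apart from background without detection calls.

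The other common subunits of complex IV did not pass. Changes were 0.12 for Cox4i1, 0.073 for Cox5a, 0.20 for Cox5b, 0.22 for Cox6a1, 0.17 for Cox6b1, -0.13 for Cox7a2 and -0.011 for Cox8a. All 6 probe sets of Cox5b changed by between 0.021 and 0.20. Cox6a1 had 18089, 18071 and 18641 in miR-34a arrays, against 17216, 14787 and 15249 in vector arrays, so that vector 1 lay nearest to the miR-34a arrays. Cox4i1 had 14523, 16035 and 15172 in miR-34a arrays, against 14542, 13363 and 14084 in vector arrays, and these groups overlapped. Cox7a2 had 8829, 8547 and 8749 in miR-34a arrays, against 10262, 9166 and 9297 in vector arrays. Its groups did not overlap, with miR-34a below. Cox7a2l, which joins complexes III and IV into a supercomplex, had a change of 0.21 ± 0.081 (limma adjusted p = 0.145) without overlap between the groups.

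The tissue isoforms of complex IV were not called either. Cox4i2, the lung-enriched isoform of subunit 4, had 325, 353 and 479 in miR-34a arrays, against 360, 304 and 319 in vector arrays, a change of 0.21 ± 0.15. The heart and muscle isoform gene Cox6a2 had 713, 759 and 828 in miR-34a arrays, against 786, 615 and 705 in vector arrays, a change of 0.13. The muscle isoform gene Cox7a1 had 172, 172 and 172 in miR-34a arrays, against 224, 148 and 156 in vector arrays. Its change was -0.0090, and 0.16 without vector 1. The muscle and brown fat isoform gene Cox8b had 224, 213 and 262 in miR-34a arrays, against 228, 207 and 188 in vector arrays, a change of 0.15. In each of these 4 the groups overlapped. The testis isoform genes Cox6b2 and Cox8c had changes of -0.23 and 0.028. Cox6b2 had 203, 173 and 216 in miR-34a arrays, against 243, 205 and 254 in vector arrays. Cox8c had 1326, 1253 and 1427 in miR-34a arrays, against 1339, 1276 and 1309 in vector arrays. Both overlapped between groups. The common counterparts on the same subunits, Cox6b1 and Cox8a, had 10475 to 11410 and 7647 to 8043 in miR-34a arrays, against 9443 to 10403 and 7341 to 8614 in vector arrays. No probe set had Cox7b2 as its single symbol.

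All 16 skeletal muscle genes had a change above 0, with a median of 0.53, but they varied unequally between arrays. The fast myosin gene Myh1 had 1507, 62.0 and 2580 in miR-34a arrays, against 32.8, 54.1 and 272 in vector arrays. The skeletal actin gene Acta1 had 1486, 169 and 2617 in miR-34a arrays, against 214, 177 and 583 in vector arrays. Both were high in miR-34a 1, miR-34a 3 and, less so, in vector 3. The myoglobin gene Mb varied little, with 216, 258 and 272 in miR-34a arrays, against 256, 228 and 256 in vector arrays. The summed intensity of the 16 skeletal muscle genes ran from 3383 to 11961 in miR-34a arrays and from 3214 to 4306 in vector arrays, and 0 of them passed, with 3 at an unadjusted p under 0.05. Without miR-34a 2, 7 passed as higher. Of 8 heart and slow muscle genes 1 passed, the slow myosin gene Myh7 at 0.69. Myh7 passed in 1 of the 6 fits that left out 1 array, and missed the threshold with quantile normalization or median centring. The summed intensities of this list were 6182 to 7115 in miR-34a arrays and 6744 to 9188 in vector arrays. Of 8 brown and white adipocyte genes 1 passed, the lipase gene Pnpla2 at 0.37, which passed in 1 of those 6 fits. The brown fat gene Ucp1 had 80.2 to 87.7 in miR-34a arrays and 78.3 to 108 in vector arrays. The summed intensity of the adipocyte genes was 3876 to 4110 in miR-34a arrays and 3427 to 3744 in vector arrays. Of 6 endothelial genes 0 passed, with 2 at an unadjusted p under 0.05.

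**Figure D3:**
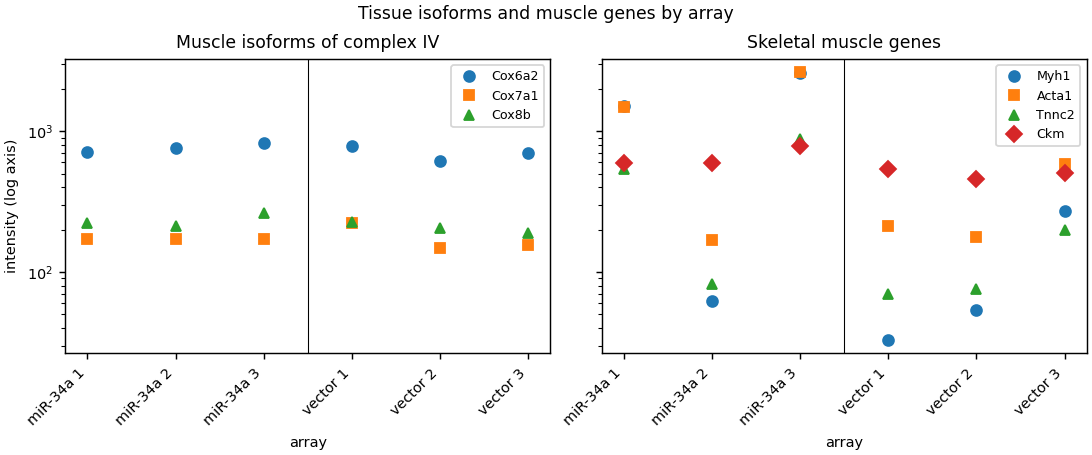
Intensity by array, on a log axis, of the muscle isoforms Cox6a2, Cox7a1 and Cox8b (left) and of 4 skeletal muscle genes (right), with the miR-34a arrays left of the vector arrays. Myh1 and Acta1 stand high in miR-34a 1 and miR-34a 3, while the isoforms keep to a narrow range.

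In complex V, ATP synthase, 3 of 17 genes passed (17.6%, against 11.7% of all genes), and they did not share a direction. Atp5e, the epsilon subunit of the F1 central stalk, had 5784, 6001 and 6171 in miR-34a arrays, against 4915, 3858 and 4202 in vector arrays. Atp5k, the e subunit of the membrane part, had 7066, 7045 and 7325 in miR-34a arrays, against 5835, 5379 and 5950 in vector arrays. Atp5j, coupling factor 6 of the peripheral stalk, had 4346, 3866 and 3783 in miR-34a arrays, against 5113, 4934 and 5310 in vector arrays. None of the 3 overlapped between groups. Atp5e rose by 0.47 ± 0.11 (SE; limma adjusted p = 0.0324) and Atp5k by 0.32 ± 0.078 (adjusted p = 0.0420). Atp5j fell by 0.36 ± 0.087 (adjusted p = 0.0414).

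Each of these 3 calls was kept without vector 1 and missed the threshold when any other array was left out, with changes of 0.40 to 0.57 for Atp5e, 0.28 to 0.35 for Atp5k and -0.42 to -0.32 for Atp5j. All 3 probe sets of Atp5k changed in the same direction, at 0.32, 0.38 and 0.53. Atp5e and Atp5j had 1 probe set each, and that of Atp5e carries the same suffix as the probe set used for Uqcrq. Median centring left Atp5k at 0.31 and just past the threshold (limma adjusted p = 0.0502), without a call.

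The 14 other genes of complex V ran from -0.18 to 0.16. In the F1 part, the alpha subunit gene Atp5a1 had a change of 0.098, the catalytic beta subunit gene Atp5b -0.042, the gamma subunit gene Atp5c1 0.076 and the delta subunit gene Atp5d 0.16. Further probe sets of Atp5a1 changed by -0.14 and 0.28. The genes Atp5g1, Atp5g2 and Atp5g3, which encode the same ring-forming c subunit, had changes of 0.028, 0.026 and 0.037. The stalk genes Atp5pb, Atp5h and Atp5o had 0.13, 0.13 and 0.15, and Atp5j2 and Atp5l of the membrane part 0.041 and 0.14. Atp5md had 0.097 and Atp5mpl -0.18, and in Atp5mpl the groups did not overlap. In Atp5g1 vector 1, at 4009, was the highest of all arrays, and the miR-34a arrays (3269 to 3413) lay above the other vector arrays (2966 and 2977).

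The promoters of the called complex V genes are shown for comparison with that of Cycs (RefSeq, GRCm38.p6, all on the minus strand). They lie at chr5:108434350-108434649 for Atp5k, chr2:174464052-174464351 for Atp5e and chr16:84834927-84835226 for Atp5j, whose other listed start held none of the 4 motifs. Capitals mark the same motifs. In Atp5k an NRF1 core stood on both strands, overlapping, with its first base 50 before the start, and an ETS motif began at base 13 after it. In Atp5e an ETS motif began 102 bases before the start. In Atp5j a YY1 motif began 88 and an ETS motif 61 bases before it. The ETS motif thus stood beside genes called in both directions.
Atp5k: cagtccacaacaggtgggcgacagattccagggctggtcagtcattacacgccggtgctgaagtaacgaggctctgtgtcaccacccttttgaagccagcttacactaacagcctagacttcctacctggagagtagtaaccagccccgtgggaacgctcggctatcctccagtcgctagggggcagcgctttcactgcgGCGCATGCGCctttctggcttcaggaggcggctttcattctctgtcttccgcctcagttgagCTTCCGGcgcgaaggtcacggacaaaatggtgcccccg
Atp5e: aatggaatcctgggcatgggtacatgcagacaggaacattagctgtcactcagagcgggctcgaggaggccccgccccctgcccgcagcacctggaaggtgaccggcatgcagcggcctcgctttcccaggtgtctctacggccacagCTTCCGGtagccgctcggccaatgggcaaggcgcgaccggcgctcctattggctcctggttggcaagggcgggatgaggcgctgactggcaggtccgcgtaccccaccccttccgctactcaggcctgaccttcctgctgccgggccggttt
Atp5j: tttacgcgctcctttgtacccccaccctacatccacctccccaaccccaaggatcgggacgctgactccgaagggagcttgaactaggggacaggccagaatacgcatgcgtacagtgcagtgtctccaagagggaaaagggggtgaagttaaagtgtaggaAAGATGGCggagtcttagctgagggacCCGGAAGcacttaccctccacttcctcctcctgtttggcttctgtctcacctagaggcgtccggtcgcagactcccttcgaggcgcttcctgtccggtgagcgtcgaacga

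Array by array, the members showed 1 further regularity. Of the vector arrays vector 1 was the highest in 33 of the 50 members and vector 2 the lowest in 35. Vector 2 was the lowest of all 6 arrays in 25. The median deviation of the members from their own mean was 0.0066, 0.031 and 0.049 in the miR-34a arrays, against 0.046, -0.11 and -0.040 in the vector arrays. Over all genes it was -0.013, 0.020 and 0.041 in the miR-34a arrays, against 0.034, -0.037 and -0.028 in the vector arrays. The SD within a group had a median over members of 0.058 in miR-34a arrays and 0.12 in vector arrays. Over all genes these SDs were 0.099 in miR-34a arrays and 0.13 in vector arrays.

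**Figure D4:**
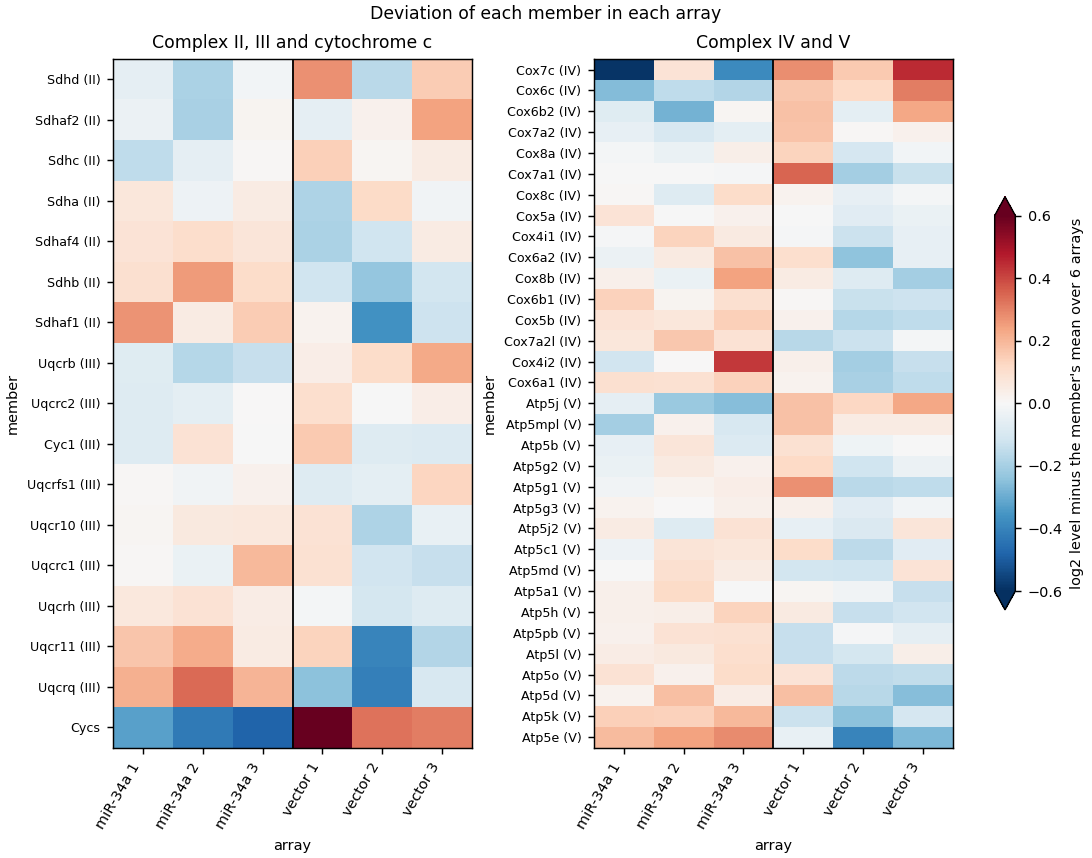
Log2 level of each member in each array minus its mean over the 6 arrays, with the miR-34a arrays left of the line and the vector arrays right of it, complexes in brackets. Cycs is low in all miR-34a arrays and Cox7c in miR-34a 1 and miR-34a 3, and vector 2 is the lowest of the 6 arrays in 25 of 50 members.

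Members with several probe sets give a check within the arrays. Of 27 such members, 8 had probe sets of opposite sign, and 0 of these 8 were called. Of the 6 called members, Cycs, Cox6c, Atp5k and Uqcrq had more than 1 probe set, and those of each moved in 1 direction. The brightest probe set, which was the one used, gave the smallest change for the called members Cycs and Atp5k and the largest for Uqcrq and Cox6c.

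**Figure D5:**
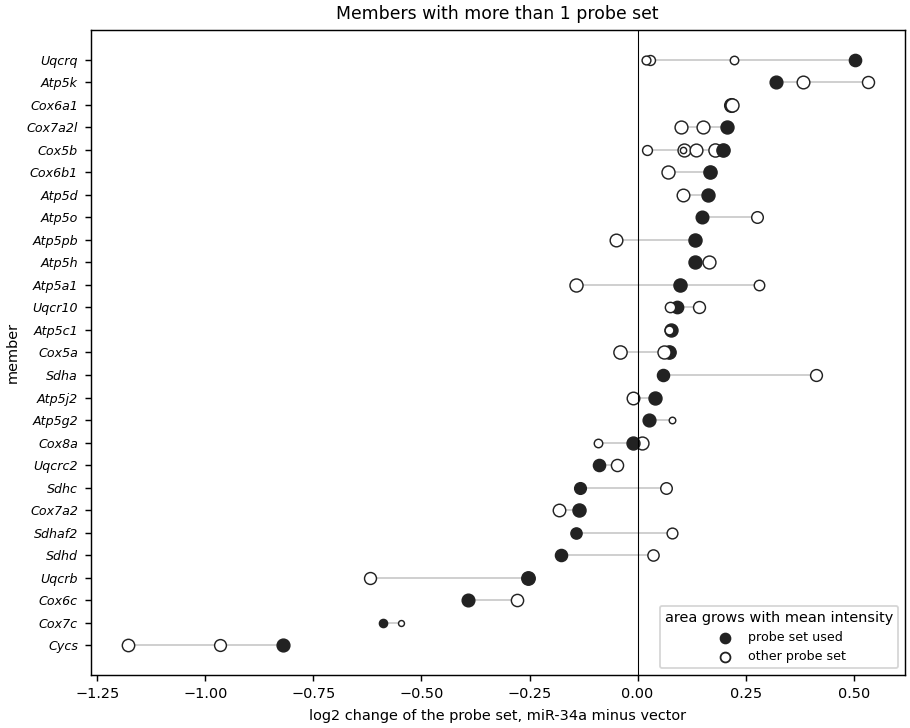
Log2 change of every probe set (miR-34a minus vector) for the 27 members with more than 1, with the probe set used filled and a point area that grows with mean intensity. The 3 probe sets of Cycs lie between -1.18 and -0.82, and most others lie close to 0.

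Genes around the complexes were also read from the fit of all genes, in lists drawn up for this comparison. Of 26 measured assembly factors, 1 was higher, Cox19 at 0.53, and 3 were lower, Hccs, the insertase gene Oxa1l at -0.49 and Coa6, a copper-related factor of complex IV, at -0.50. That is 1 of 26 and 3 of 26, beside 6.5% and 5.25% of all genes. An unadjusted p under 0.05 was found for 16 of the 26. The groups did not overlap in 18 (69.2%, against 34.9% of all genes), with miR-34a above in 11 and below in 7. Oxa1l passed in 2 and Coa6 in 1 of the 6 fits that left out 1 array, and Cox19 in 4. With suffix-free probe sets Oxa1l had a change of -0.18, without a call (adjusted p = 0.198). The median of the list was 0.11. Without vector 1, 6 were higher and 3 lower. With miR-34a 1 or miR-34a 3 left out, 0 were higher and 1 lower, with vector 3 or miR-34a 2 left out 1 and 1, and with vector 2 left out 1 and 3.

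Of 18 regulators of respiratory genes and mitochondrial DNA, 1 passed. Ssbp1, which binds single-stranded mitochondrial DNA, had 3469, 3475 and 3431 in miR-34a arrays, against 5733, 5192 and 4730 in vector arrays, and fell by 0.59 ± 0.092 (SE; limma adjusted p = 0.0126). Ssbp1 missed the threshold without miR-34a 1 or miR-34a 3, and its probe sets changed by between -1.07 and -0.079. Of the factors that bind the NRF1, ETS and YY1 motifs, the genes on the list were not called, with changes of 0.045 for Nrf1, -0.28 for Gabpa, 0.063 for Gabpb1 and 0.10 for Yy1. The coactivator gene Ppargc1a had -0.29 and the mitochondrial transcription factor gene Tfam -0.058. A second probe set of Gabpa changed by -0.79, and Gabpa passed in 1 of the 6 fits that left out 1 array. Other probe sets, opposite in sign, reached -0.36 for Yy1, -0.18 for Gabpb1, -0.040 for Nrf1 and 0.33 for Ppargc1a. Without vector 1, or with the mean of all probe sets, 2 genes of the list were lower.

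The tricarboxylic acid cycle and pyruvate dehydrogenase list had 5 of 16 members lower and 0 higher, beside 5.25% and 6.5% of all genes, with a median of -0.14. With the mean of all probe sets 3 were lower. Idh3a, a subunit of isocitrate dehydrogenase, had 1992, 2097 and 2073 in miR-34a arrays, against 3341, 3109 and 3480 in vector arrays. It fell by 0.68 ± 0.080 (SE; limma adjusted p = 0.00615) and passed in each of the 6 fits that left out 1 array, though its other probe sets reached -0.0044. The call of Idh3a was lost with the mean of all probe sets, at -0.26 (adjusted p = 0.0579), and with suffix-free probe sets, at -0.11 (adjusted p = 0.604). The succinyl-CoA ligase gene Suclg2 fell by 1.08, and without vector 1 it changed by -0.86. The pyruvate dehydrogenase genes Pdha1 and Dlat fell by 0.61 and 0.41, and Dld, which serves several dehydrogenases, by 0.64. Averaged over its probe sets Dlat had a change of -0.25, without a call (limma adjusted p = 0.0873). The citrate synthase gene Cs, often used as a measure of mitochondrial content, had a change of -0.17. Its 3 probe sets changed by between -0.50 and -0.12. Leaving out miR-34a 2 left 2 lower, and 1 was lower in the fits that lacked another miR-34a array. The count was 5 without vector 1 and 3 without vector 2 or vector 3. Sdha to Sdhd, whose complex is part of the same cycle, are counted above and not in this list.

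Of 11 measured genes for carriers, pores, import and mitochondrial creatine kinase 0 passed, and the change was above 0 in 1, Slc25a4, at 0.0058. Without vector 1, Slc25a4 had -0.021, the import pore gene Tomm40 0.073 and the creatine kinase gene Ckmt1 0.14. The adenine nucleotide carrier gene Slc25a5 had a change of -0.37 (limma adjusted p = 0.124), the outer membrane channel genes Vdac1 and Vdac3 -0.26 and -0.20, and the phosphate carrier gene Slc25a3 -0.13. The median was -0.14, and 0 passed in each of the fits that left out 1 array. Of these 11 genes, 3 had an unadjusted p under 0.05.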

How the data were processed

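The deposited values are probe set intensities on a linear scale, from biotin-labelled total RNA on Affymetrix mouse arrays, per the labels. How the authors summarised and normalized them is not given in the sources used here. The lowest value is 1, the medians per array are close, and there are no detection calls. Groups and replicate numbers come from the titles.

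Symbols came from the platform annotation, updated by Entrez identifier through the GRCm38.p6 RefSeq table. Of 22690 probe sets 20393 had 1 symbol, 691 several and 1606 none, and 20364 matched. Without the 64 control probe sets, each gene took its probe set with the highest mean of log2(intensity + 16), giving 12393 genes. They were tested with limma 3.58.1 (lmFit and eBayes, two-sided) in R 4.3.3 with Benjamini-Hochberg adjustment at 0.05; the fit was tested on simulated data. Figures used matplotlib 3.10.9. The precision rests on 3 arrays per group.

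The members and lists were chosen with earlier results of these data known. Each member is named; values by array are given for called members, the 5 largest changes each way and tissue isoforms. Other lists have their called genes, or up to 4 with the smallest p, named with the change, and only some by array. Further genes were named after their values were seen. Alternatives were the scaling, a filter on dim genes, the pseudocount, the probe set rule, array weights, a variance trend fitted robustly, leaving out each array, and the replicate block.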

Additional observations from a re-analysis of the deposited data

How the results depend on the processing

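With 3 arrays per group the counts of calls moved with the spread that a fit assumed, and signal over background was not known, which limits Cox7c, Cox6b2 and Cox7a1 most. The 1456 genes called became 3238 with array weights, 522 with the replicate block and 226 to 2133 when each array was left out. Of members, 3 were higher, and 8 with array weights, 0 with the replicate block and 0 to 5 with each array left out. The 3 lower members became 5 with array weights, 1 with the replicate block and 1 to 3 with each array left out. The share of members called was 26% beside 26.1% of all genes with array weights, and 2% beside 4.21% with the block. Deviations of same-numbered arrays correlated at -0.17, -0.094 and -0.081, and those of the other pairs at -0.049 to 0.14. With 3 arrays per group these deviations sum to 0, which ties the correlations together. They cannot show whether the replicate numbers pair the samples. Averaging all probe sets put the median of complex II at 0.17, and it was -0.017 to 0.13 with each array left out. The median of complex IV was 0.024 with suffix-free probe sets preferred. The median of all members was 0.028 with suffix-free probe sets and 0.048 to 0.11 with each array left out, and those of complexes III and V 0.029 and 0.037 with suffix-free probe sets. Quantile normalization gave 0.055 for all members and 0.057 for complex V. The moves with quantile normalization were within the SD of the array medians, pooled over the groups. So were the suffix-free moves of all members and of complexes III and V. That SD was 0.069 for complex II and 0.062 for complex IV. Complex II moved by more with averaged probe sets, without vector 1 or without vector 2, and complex IV with suffix-free probe sets. Suffix-free probe sets turned the sign of Atp5a1 (-0.14), Atp5j2 (-0.010), Atp5pb (-0.050), Cox5a (-0.040), Cox8a (0.011) and Pnpla2 (-0.20). Array weights turned Cox7a1 (0.11), Cox8a (0.024), Uqcrfs1 (-0.067) and Htra2 (0.049). Median centring turned Cyc1 (-0.010) and Uqcrfs1 (-0.0087), quantile normalization Uqcrfs1 (-0.0044), and the mean of all probe sets Htra2 (0.030). With each array left out the change ran from -0.045 to 0.17 for Atp5g1, -0.028 to 0.091 for Atp5g2, -0.11 to 0.16 for Cox7a1, -0.063 to 0.052 for Cox8a and -0.021 to 0.072 for Cox8c. It ran from -0.037 to 0.083 for Cyc1, -0.017 to 0.13 for Sdha, -0.031 to 0.072 for Uqcrfs1 and -0.088 to 0.043 for Htra2. The tricarboxylic acid cycle list had 3 lower genes with the replicate block. The cause of these shifts was not tested.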
